A study of Mus musculus with 20 samples.

Results

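The 37 genes described here are known for their expression in the endothelium, the cells that line blood vessels, or for their part in the barrier that vessels form in the brain. They were followed in the RNA of 2 mouse tissues, the trigeminal ganglia (TG), where the sensory neurons that serve the head have their cell bodies, and the nucleus accumbens (NAc), a part of the ventral striatum. The members came from a fixed list of gene symbols, and RefSeq transcripts were summed per gene. All 37 were found among 32941 named genes, in a table of 53518 features once 20577 transcripts without a gene match were kept as features of their own. The list was drawn up with earlier morphine results of these libraries in view, and which value led to which gene is not recorded. The morphine values below are therefore descriptions, and no count of members called in a morphine comparison is read as support for an effect on vessels.

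The mice were male C57BL/6J animals of 9 to 12 weeks, with no transgene or deletion named in the labels. 5 mice had received morphine in a model that the labels call OIH and 5 had received vehicle, and tissue was taken 24 h after the last injection. Each of the 10 mice gave a TG and an NAc library, so that each of the 4 groups held 5 libraries and the tissues came from the same animals. No dose or route is stated in the labels or the design text.

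Endothelial cells of brain vessels are held together by tight junctions built around claudin-5 and by adherens junctions built around VE-cadherin, and they pass nutrients through dedicated carriers rather than through gaps. Vascular endothelial growth factor, angiopoietins and apelin are signals that reach endothelial receptors and set vessel growth, permeability and quiescence. In sensory ganglia the capillaries around the neuron cell bodies are known to be leakier than those of the brain. Several listed genes are also used by other cells: Slc16a1 by glia, Vegfa by astrocytes and neurons, Tjp1 by many epithelial and neural cells, and Plat by neurons.

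The deposited counts summed to between 61285916 and 76110288 per TG library and between 52402037 and 64357778 per NAc library. Levels are given in CPM, a library-scaled count after TMM scaling within the tissue unless another scale is named, and values listed for a group run from replicate 1 to replicate 5. All 37 members passed the filter on low counts in the TG, and 35 passed in the NAc, where Aplnr and Abcb1a did not. Some libraries stood apart in RNA of other cells. Summed pituitary markers read 610, 985, 1360 and 1140 CPM in TG vehicle replicates 4 and 5 and TG morphine replicates 3 and 5, and between 18.9 and 283 CPM in the other TG libraries. Summed markers of striatal neurons read 1430 CPM in NAc vehicle replicate 2 and between 2300 and 4510 CPM in the other 9 NAc libraries.

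In vehicle mice the members spanned a wide range of levels per kilobase of transcript, here in CPM scaled over all 20 libraries together, so that the tissues share 1 scale. The membrane protein gene Itm2a was highest per length in both tissues, at 60.0 ± 4.44 CPM per kilobase in the TG and 30.6 ± 2.17 in the NAc (SD, n = 5). Vegfa came next, at 24.3 ± 0.795 CPM per kilobase in the TG and 29.8 ± 1.33 in the NAc. The surface marker gene Ly6c1 held rank 3 in both tissues, at 23.4 ± 2.26 and 26.2 ± 1.97 CPM per kilobase. In the TG its spread took in the mean of Vegfa. Cldn5 held 15.3 ± 2.04 CPM per kilobase in the TG and 17.3 ± 2.12 in the NAc, a difference within the SD of either group. The lowest members per length were Abcb1a, Ocln and Aplnr in the TG, at 0.147 ± 0.0992, 0.331 ± 0.123 and 0.464 ± 0.121 CPM per kilobase. The defining endothelial markers Cldn5, Cdh5, Pecam1, Kdr, Flt1, Tek and Tie1 were counted in all 20 libraries.

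The first question was how the members stood after morphine in each tissue. In the TG, 25 of the 37 log2 fold changes were negative and their median was -0.06, beside a median of 0.00 over all named genes. In the NAc, 27 of 35 were negative, with a median of -0.10 beside -0.01 over all named genes. Across the 35 members tested in both tissues, 19 were negative in both, 3 were positive in both and 13 had opposite signs. Calls were made with the quasi-likelihood test of edgeR, its p-values adjusted by Benjamini-Hochberg over all features. In the TG it called 1 member, Rhoj, which was lower, beside 0.0272% of the 29394 features called lower, 0.153% called higher and 0.18% in either direction. In the NAc no member was called, and none of the 29910 features was (0%), although 1709 features and 12 members, all of those lower, had an unadjusted p under 0.05. DESeq2 called 7 members among 245 features in the NAc and limma voom called 0 among 4.

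The libraries themselves were also compared for overlap between treatments, without a test. In the TG 3 members had all 5 morphine libraries below all 5 vehicle libraries, Vegfa, Cd93 and Rhoj, beside 1.11% of all features tested. In the NAc 8 of 35 did so, Cldn5, Cdh5, Unc5b, Vegfa, Apln, Slc16a1, Cd93 and Plat, beside 1.07% of features. No member was higher without overlap in either tissue, beside 1.44% of features in the TG and 0.649% in the NAc. Vegfa and Cd93 were lower without overlap in both tissues, as were 8 of 27077 features (0.0295%). The other 5 named genes of those 8 were the collagen genes Col3a1 and Col15a1 and the chaperone genes Hspa1a, Hsp90b1 and Ahsa1, which were named after their values had been seen. Fewer endothelial cells and less RNA per cell cannot be told apart in RNA of whole tissue.

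The mean of the morphine effects in both tissues, a comparison added after the data had been seen, was fitted on all 20 libraries. It called 6 of the 37 members lower, Cldn5, Vegfa, Slc16a1, Cd93, Plat and Rhoj, and 0 higher, beside 0.109% of 32998 features called lower and 0.118% called higher. Of the 37 values, 30 were negative and the median was -0.08. Without the 4 TG libraries rich in pituitary RNA, 0 members were called, among 33 features called, and the values of these 6 members lay between -0.40 and -0.13. Fewer TG libraries remained in each treatment group of that fit, and smaller groups and less pituitary RNA cannot be told apart in it. With any 1 library left out, Cd93, Rhoj, Slc16a1 and Vegfa were called in all 20 fits, Cldn5 in 13 and Plat in 4. The Cldn5 call was lost without TG morphine replicate 2 or 5, TG vehicle replicate 3 or 5, NAc morphine replicate 2 or 4, or NAc vehicle replicate 4. Plat was called without TG morphine replicate 3, TG vehicle replicate 2, or NAc vehicle replicate 2 or 5, and in no other such fit.

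**Figure D1:**
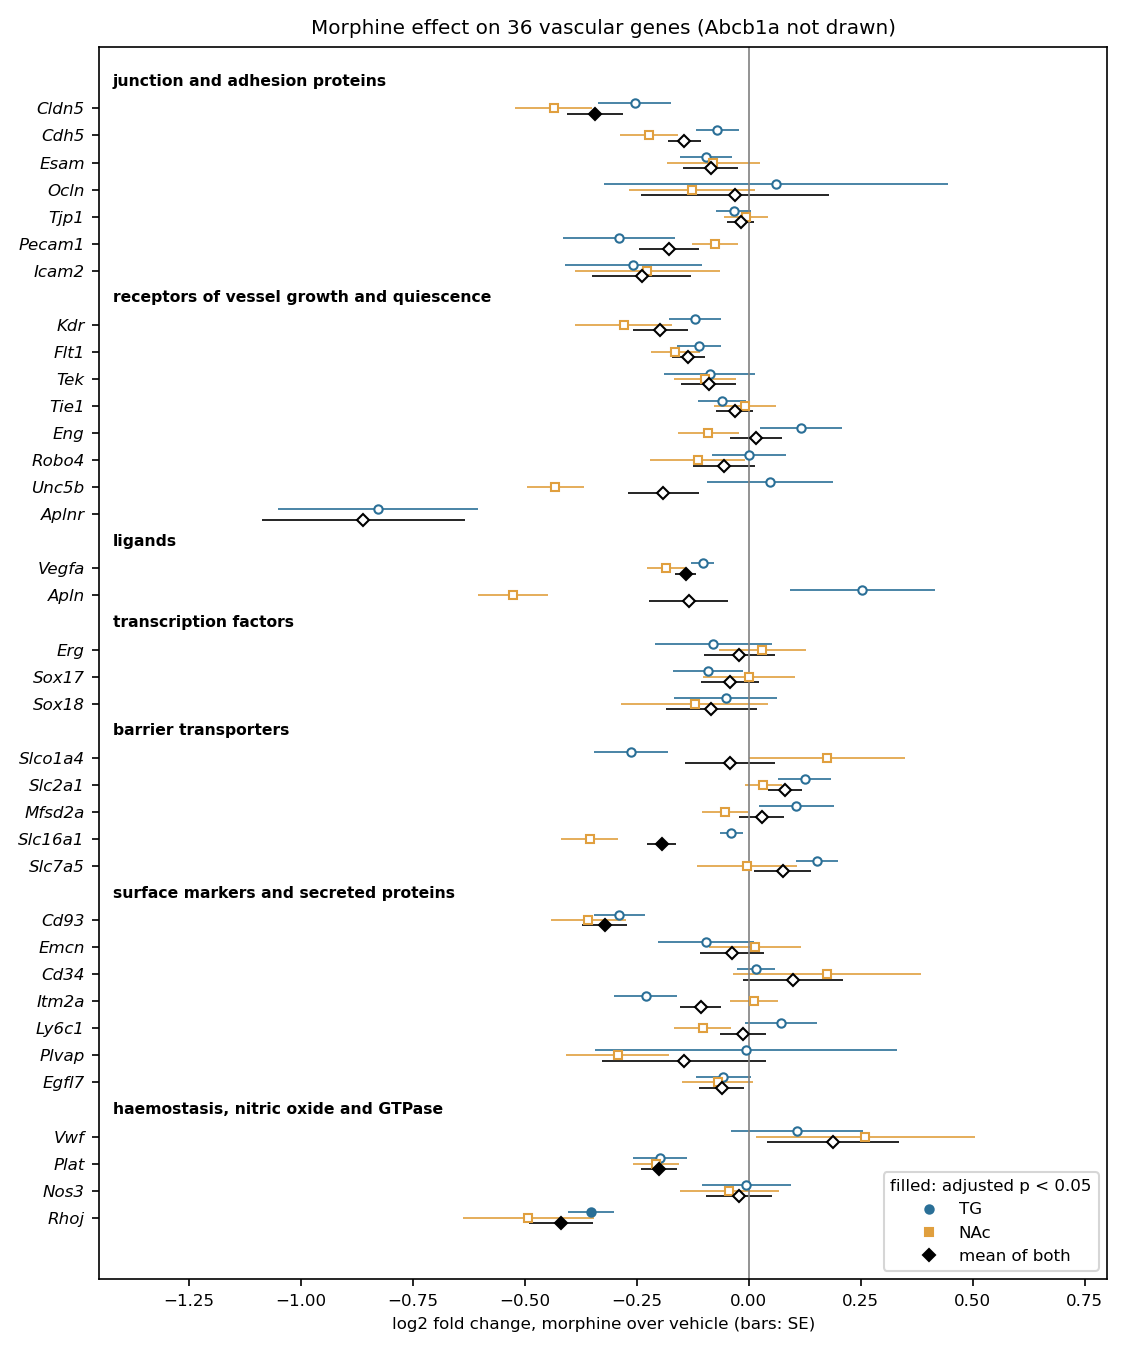
Log2 fold change of morphine over vehicle (x axis, bars are SE) for 36 members grouped by role, in the TG (circles), in the NAc (squares) and as the mean of both (diamonds), with filled symbols for an adjusted p under 0.05. Rhoj is the filled circle of the TG at -0.35, and 6 diamonds are filled, all left of 0.

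Promoters of 4 of these 6 genes were present in the RefSeq table of build GRCm38.p6, which held 24 of the 37 members. They are shown because these genes were called together, each from 250 bases before to 50 bases after the annotated start, read 5′ to 3′ on the gene's strand. Capitals mark 3 short motifs searched on both strands, AGGAAG for ETS factors such as the member Erg, AACAAT for SOX factors such as Sox17 and Sox18, and CACGTG, the E-box. The Cldn5 sequence lies at chr16:18776597-18776896 on the plus strand, and that of Vegfa at chr17:46032328-46032627 on the minus strand, the upstream one of its 2 listed starts. The Slc16a1 sequence lies at chr3:104638414-104638713 and that of Rhoj at chr12:75308063-75308362, both on the plus strand.
Cldn5: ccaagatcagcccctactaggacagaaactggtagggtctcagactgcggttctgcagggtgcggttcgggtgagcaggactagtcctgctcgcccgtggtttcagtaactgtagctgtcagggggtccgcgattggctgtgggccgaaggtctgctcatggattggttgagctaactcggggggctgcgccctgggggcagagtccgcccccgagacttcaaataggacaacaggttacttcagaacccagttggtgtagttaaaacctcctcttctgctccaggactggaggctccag
Vegfa: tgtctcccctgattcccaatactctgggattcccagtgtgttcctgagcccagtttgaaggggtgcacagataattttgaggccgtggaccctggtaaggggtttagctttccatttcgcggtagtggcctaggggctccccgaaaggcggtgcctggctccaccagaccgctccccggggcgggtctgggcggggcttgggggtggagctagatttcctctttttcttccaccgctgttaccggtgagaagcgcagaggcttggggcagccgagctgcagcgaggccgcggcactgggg
Slc16a1: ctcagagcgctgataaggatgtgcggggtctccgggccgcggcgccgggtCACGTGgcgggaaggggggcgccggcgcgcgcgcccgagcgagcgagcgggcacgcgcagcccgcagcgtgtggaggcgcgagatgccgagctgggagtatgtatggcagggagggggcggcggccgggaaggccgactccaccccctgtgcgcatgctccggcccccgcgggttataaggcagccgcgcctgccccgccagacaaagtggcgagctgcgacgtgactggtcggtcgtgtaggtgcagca
Rhoj: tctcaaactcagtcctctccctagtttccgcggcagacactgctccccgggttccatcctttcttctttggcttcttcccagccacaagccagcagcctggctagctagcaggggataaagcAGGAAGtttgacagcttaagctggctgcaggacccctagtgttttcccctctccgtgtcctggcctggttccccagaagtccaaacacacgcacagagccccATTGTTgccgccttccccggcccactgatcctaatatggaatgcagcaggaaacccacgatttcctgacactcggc
The Rhoj window held AGGAAG once and AACAAT once, the latter as its reverse complement. The Slc16a1 window held CACGTG, and the Cldn5 and Vegfa windows held none of the 3. Among the 24 members with a promoter, 14 held AGGAAG in at least 1 window, beside 35.4% of all 32851 promoter windows, 5 held AACAAT, beside 10.7%, and 1 held CACGTG, beside 7.15%. Some members have several windows and each has a larger chance of a match, so these shares are not set against each other.

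Among junction and adhesion genes, all 7 had a negative mean effect and Cldn5 was the one called. Cldn5, the gene for claudin-5 of the tight junction, read 25.4, 21.6, 24.7, 27.9 and 29.9 CPM in the NAc of vehicle mice and 19.2, 18.4, 21.0, 18.1 and 19.1 CPM after morphine. All 5 morphine libraries lay below the lowest vehicle library, and the ratio of means was 0.74, from 25.9 ± 3.17 to 19.2 ± 1.10 CPM (SD, n = 5). The log2 fold change in the NAc was -0.44 ± 0.09 (SE), with an adjusted p of 0.34. In the TG, Cldn5 read 20.2, 16.7, 20.1, 22.8 and 22.9 CPM with vehicle and 18.1, 16.3, 17.7, 17.2 and 16.6 CPM with morphine. Vehicle replicate 2 fell within the morphine range there, and the log2 fold change was -0.25 ± 0.08 with an adjusted p of 0.31. The mean effect was -0.34 ± 0.06 with an adjusted p of 0.024.

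Cdh5, the gene for VE-cadherin of the adherens junction, was named after its values had been seen. It read 12.8, 12.6, 13.4, 12.9 and 14.1 CPM in vehicle NAc and 10.9, 11.7, 12.4, 10.6 and 10.9 CPM in morphine NAc. The groups did not overlap, and the log2 fold change was -0.22 ± 0.06 with an adjusted p of 0.58. In the TG the Cdh5 means were 20.2 ± 0.925 and 19.3 ± 1.09 CPM, and the groups overlapped. Pecam1 and Icam2, adhesion molecules of the endothelial surface, overlapped in both tissues, and their mean effects were -0.18 ± 0.07 and -0.24 ± 0.11. The adhesion gene Esam had a mean effect of -0.08 ± 0.06. Tjp1, which encodes the scaffold ZO-1 under the tight junction, had means of 121 ± 6.41 and 118 ± 4.20 CPM in the TG and 143 ± 9.15 and 142 ± 4.41 CPM in the NAc. The mean effect of Tjp1 was -0.02 ± 0.03, close to 0 with a small error. Ocln, the gene for occludin, was low in the TG and had a mean effect of -0.03 ± 0.21, an error too wide to show a change of the size seen for Cldn5.

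Among the 8 receptors, no mean effect was called. Unc5b, a netrin receptor of sprouting vessels that neurons also express, read 31.2, 37.6, 31.3, 34.4 and 32.9 CPM in vehicle NAc and 23.4, 24.7, 25.1, 24.1 and 26.9 CPM in morphine NAc. Every morphine library lay below every vehicle library, and the ratio of means was 0.741. Its log2 fold change of -0.43 ± 0.06 had the smallest p of the members in the NAc, 4.4e-05, and an adjusted p of 0.13. In the TG, Unc5b read 5.61, 5.38, 5.07, 7.35 and 7.77 CPM with vehicle and 6.94, 6.44, 7.45, 5.49 and 5.89 CPM with morphine. These groups overlapped throughout, with a log2 fold change of 0.05 ± 0.14. The difference between the tissues in morphine effect, 0.48 ± 0.16, had an adjusted p of 0.51.

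Aplnr, the gene for the apelin receptor of venous and growing endothelium, had a mean effect of -0.86 ± 0.23, the most negative of the members and not called. Aplnr entered that fit through its TG libraries, since it missed the filter within the NAc, and its mean effect is given as a description. It read 1.41, 1.03, 1.84, 1.74 and 2.08 CPM in vehicle TG and 1.13, 1.07, 0.757, 0.949 and 0.652 CPM in morphine TG. Vehicle replicate 2 lay within the morphine range, and the TG log2 fold change was -0.83 ± 0.22 with an adjusted p of 0.23. In the NAc, where the gene missed the filter, no Aplnr value was above 0.348 CPM. The mean effects of the growth factor receptors Kdr and Flt1 were -0.20 ± 0.06 and -0.13 ± 0.04, with adjusted p of 0.25 and 0.19. Flt1 rested on a single RefSeq model for 87.0% to 90.0% of its count, and a second model held 9.44% to 11.4%, as group means. The angiopoietin receptor Tek, its partner Tie1, the co-receptor Eng and Robo4 had mean effects between -0.09 and 0.02, none called.

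Both ligand genes were lower in the NAc after morphine without overlap. Vegfa, which encodes the growth factor read by Kdr and Flt1, held 109, 106, 107, 105 and 117 CPM in vehicle NAc and 96.7, 95.3, 101, 95.1 and 91.6 CPM in morphine NAc. In the TG it held 79.5, 78.7, 77.9, 83.4 and 77.3 CPM with vehicle and 72.9, 72.9, 72.7, 76.5 and 74.5 CPM with morphine. Every morphine library was below every vehicle library of its tissue, with ratios of means of 0.931 in the TG and 0.88 in the NAc. The log2 fold changes were -0.10 ± 0.03 in the TG (adjusted p of 0.18) and -0.18 ± 0.04 in the NAc (adjusted p of 0.37), and the mean effect of -0.14 ± 0.02 had an adjusted p of 0.0158. The 10 RefSeq models of Vegfa share most of their sequence and some carry identical values, so the gene sum is given and not the models.

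Apln, the gene for the ligand of the apelin receptor, had fold changes of opposite sign in the tissues. It read 22.5, 25.7, 23.0, 23.3 and 29.5 CPM in vehicle NAc and 18.6, 16.8, 16.9, 16.7 and 17.1 CPM in morphine NAc. The morphine libraries lay close together and below all vehicle libraries, at 0.694 of the vehicle mean. In the TG it read 1.48, 1.75, 2.33, 2.28 and 2.60 CPM with vehicle and 2.39, 2.48, 2.94, 2.43 and 2.22 CPM with morphine, ranges that overlapped. The log2 fold changes were -0.53 ± 0.08 in the NAc (adjusted p of 0.14) and 0.25 ± 0.16 in the TG (adjusted p of 0.66). Their difference, 0.78 ± 0.18, had an adjusted p of 0.17. No member was called in this interaction, beside 0.0394% of 32998 features. An unadjusted p under 0.05 was held by 5 members, beside 2248 of all features. DESeq2 called Apln and Slc16a1 in the interaction and limma voom called 0 members and 0 features.

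**Figure D2:**
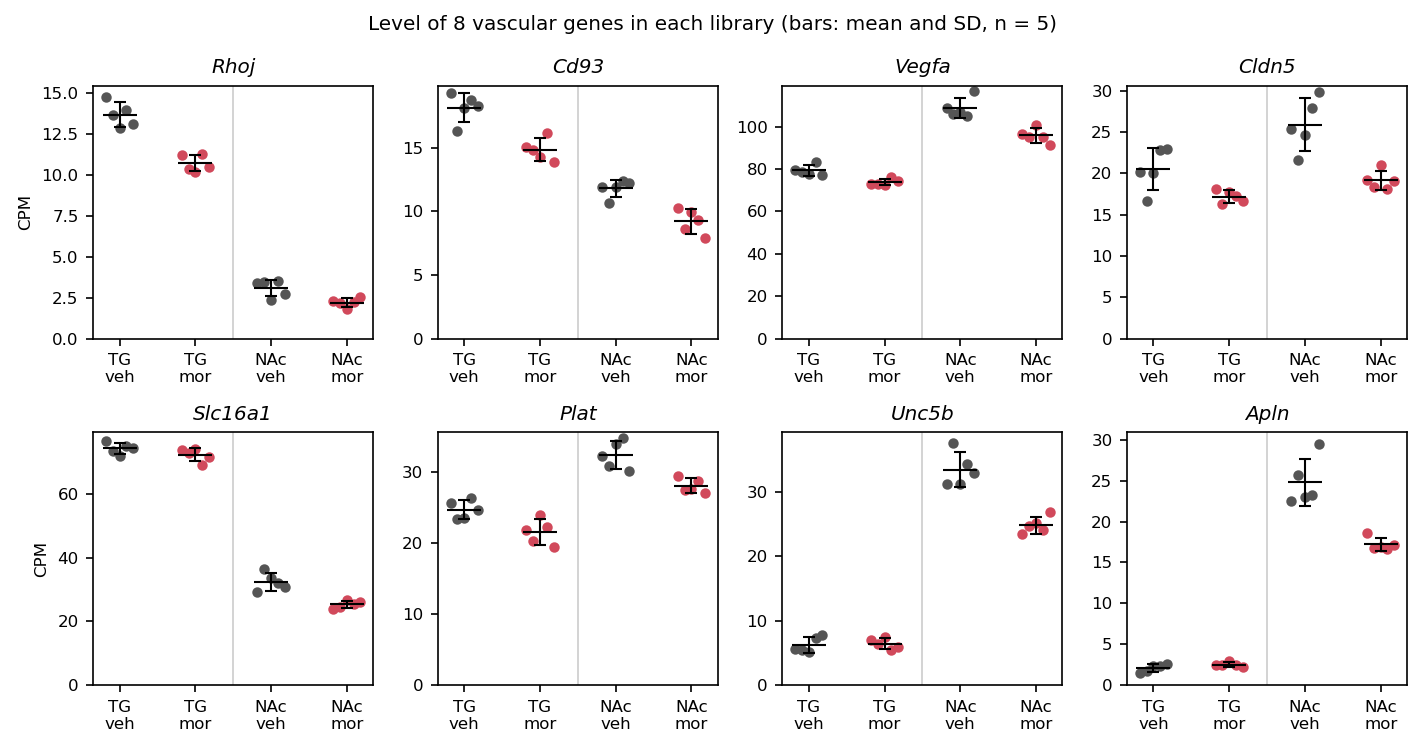
CPM (y axis, from 0) of 8 members in each library, with the TG left and the NAc right of the line, vehicle in grey and morphine in red, and bars for the mean and SD of 5 libraries. Cd93 and Vegfa are lower without overlap in both tissues, whereas the Unc5b and Apln groups are apart in the NAc and overlap in the TG.

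The 3 transcription factor genes of endothelial identity showed no called effect. Erg had means of 4.55 ± 0.865 and 4.31 ± 0.370 CPM in the TG and 5.70 ± 0.488 and 5.82 ± 0.540 CPM in the NAc, vehicle first. Sox17 stood at 8.53 ± 0.923 and 8.54 ± 0.984 CPM in the NAc and at 11.7 ± 0.516 and 11 ± 1.28 CPM in the TG. Sox18 had a mean effect of -0.08 ± 0.10, and all 3 genes overlapped between treatments in both tissues.

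Of the 6 barrier transporters, Slc16a1 was called in the mean effect. It encodes the monocarboxylate carrier MCT1, which moves lactate and ketone bodies. It read 29.3, 36.4, 33.7, 32.1 and 30.6 CPM in vehicle NAc and 24.0, 24.5, 26.8, 25.4 and 25.9 CPM in morphine NAc, without overlap. The NAc log2 fold change was -0.35 ± 0.06 with an adjusted p of 0.27. In the TG it read 76.6, 73.3, 71.8, 75.0 and 74.4 CPM with vehicle and 73.8, 72.8, 74.0, 69.1 and 71.6 CPM with morphine. Those groups overlapped, with a log2 fold change of -0.04 ± 0.03. The mean effect was -0.19 ± 0.03 with an adjusted p of 0.0158, and the difference between tissues, 0.32 ± 0.07, had an adjusted p of 0.13. Slc16a1 is also a gene of oligodendrocytes, and the summed oligodendrocyte markers in the NAc ran from 3510 to 4040 CPM with vehicle and from 3050 to 3400 CPM with morphine. All 10 of those markers had negative log2 fold changes in the NAc, none of them called, with a median of -0.25. Their part in the Slc16a1 value was not tested.

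The other transporter genes gave no called value. The glucose carrier gene Slc2a1 had means of 62.8 ± 5.41 and 68.5 ± 3.29 CPM in the TG and 86.3 ± 3.06 and 88.2 ± 3.79 CPM in the NAc. Mfsd2a, a lysolipid carrier that holds down transcytosis, had a mean effect of 0.03 ± 0.05, and the amino acid carrier gene Slc7a5 had 0.08 ± 0.06. For the organic anion carrier gene Slco1a4, the log2 fold change was -0.26 ± 0.08 in the TG (adjusted p of 0.31) and 0.17 ± 0.17 in the NAc (adjusted p of 0.998). Abcb1a, which encodes the efflux pump P-glycoprotein, could not be followed. Its estimated count was 0 in 7 of the 20 libraries and reached 304 in 1, and its near-identical neighbour Abcb1b can share its reads.

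Among surface markers and secreted proteins, Cd93 was called in the mean effect. It encodes a receptor of endothelial and some myeloid cells that binds matrix proteins. In the TG it read 19.3, 16.3, 18.1, 18.8 and 18.3 CPM with vehicle and 15.1, 14.8, 14.3, 16.2 and 13.9 CPM with morphine. In the NAc it read 11.9, 10.7, 11.9, 12.4 and 12.2 CPM with vehicle and 10.3, 8.62, 9.94, 9.33 and 7.93 CPM with morphine. In both tissues all morphine libraries were lower, by a narrow gap in each. The ratios of means were 0.819 in the TG and 0.78 in the NAc, and the log2 fold changes were -0.29 ± 0.06 (adjusted p of 0.094) and -0.36 ± 0.08 (adjusted p of 0.38). The mean effect of -0.32 ± 0.05 had an adjusted p of 0.00947, the lowest of the members, at rank 20 of 32998 features.

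The other 6 genes of this group were not called. The sialomucin genes Emcn and Cd34 had mean effects of -0.04 ± 0.07 and 0.10 ± 0.11, and the secreted factor gene Egfl7 had -0.06 ± 0.05. Itm2a was -0.23 ± 0.07 in the TG (adjusted p of 0.29) and 0.01 ± 0.05 in the NAc, a difference of -0.24 ± 0.09 with an adjusted p of 0.62. Ly6c1 had -0.01 ± 0.05, and its near copy Ly6c2 may take or give reads. Plvap, which encodes the diaphragm protein of leaky capillaries, ranged from 2.41 to 8.11 CPM in vehicle TG and had a mean effect of -0.14 ± 0.18.

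In the last group, Plat and Rhoj were called in the mean effect. Rhoj, a Cdc42-related GTPase of endothelial cells, read 14.8, 13.7, 12.9, 14.0 and 13.1 CPM in vehicle TG and 11.2, 10.4, 10.2, 11.3 and 10.5 CPM in morphine TG. In the NAc it was low, at 3.37, 3.44, 2.36, 3.54 and 2.74 CPM with vehicle and 2.27, 2.16, 1.82, 2.21 and 2.53 CPM with morphine. The TG groups were apart, and in the NAc vehicle replicate 3 lay within the morphine range. The log2 fold changes were -0.35 ± 0.05 in the TG (adjusted p of 0.0329) and -0.49 ± 0.15 in the NAc (adjusted p of 0.62), and the mean effect was -0.42 ± 0.07 (adjusted p of 0.0158). With a library left out, the TG value stayed between -0.37 and -0.32, and the call held in 1 of 10 fits, that without morphine replicate 4, with adjusted p between 0.038 and 0.09 over the 10. The TG call was also lost with the replicate number as a block (-0.35, adjusted p of 0.0947) and without the 4 pituitary-rich libraries (-0.33, adjusted p of 0.436). Treatment groups share replicate numbers only as numbers, so that block has no known basis in the design. The fit without the pituitary-rich libraries held fewer TG libraries in each group.

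Plat, the gene for tissue plasminogen activator, was named after its values had been seen. It read 32.3, 30.9, 33.9, 34.8 and 30.1 CPM in vehicle NAc and 29.5, 27.5, 27.6, 28.8 and 27.0 CPM in morphine NAc, a small gap between groups. In the TG it read 25.6, 23.4, 23.5, 26.4 and 24.7 CPM with vehicle and 21.9, 20.3, 24.0, 22.2 and 19.4 CPM with morphine, where morphine replicate 3 overlapped the vehicle range. The log2 fold changes were -0.20 ± 0.06 in the TG and -0.21 ± 0.05 in the NAc, and the mean effect of -0.20 ± 0.04 had an adjusted p of 0.0487. That fit takes the libraries of 1 mouse as independent, and with mouse as a random block the Plat call was lost (-0.20, adjusted p of 0.0616), as it was in 16 of the 20 fits with a library left out. Nos3, the endothelial nitric oxide synthase gene, had a mean effect of -0.02 ± 0.07. Vwf, the gene for von Willebrand factor, had 0.19 ± 0.15, the highest of the mean effects apart from Abcb1a.

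The second question was how the members differed between ganglia and accumbens, a contrast that is not known to have entered the choice of members. In vehicle mice 17 members were called higher and 12 lower in the TG, 78.4% of the 37 beside 67.4% of all 32998 features. In morphine mice 17 were higher and 13 lower, 81.1% beside 68.2% of features. These shares are near those of all features, and the number of members called is therefore no result about vessels. Between the sets of mice, 28 members were called in both with the same sign, 17 of them higher and 11 lower in the TG. Aplnr is among the higher members in each of these counts. It missed the filter within the NAc and entered the fit through its TG libraries, so its place there is a description. Library-size scaling alone moved the median of all features from -0.06 to -0.21 in vehicle mice, and directions of small tissue differences depend on it.

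In vehicle mice all 5 called genes of the surface and secreted group were higher in the TG, and both ligand genes were lower. The called genes of the other 5 roles went both ways, 4 higher (Aplnr among them) and 4 lower among the receptors and 3 higher and 2 lower among the transporters. Aplnr entered this fit through its TG libraries, since it missed the filter within the NAc, and its tissue difference is given as a description: 79 to 136 estimated counts per library in vehicle TG and 8 to 18 in vehicle NAc, or 3.21 ± 0.33 on the log2 scale. Among members that passed the filter in both tissues, Rhoj had the greatest excess in the TG, 2.31 ± 0.11 (4.94-fold), and Vwf came next at 1.39 ± 0.21 (2.62-fold). Vwf read 24.6, 28.2, 20.3, 21.1 and 17.6 CPM in vehicle TG and 11.1, 11.6, 9.17, 5.10 and 10.6 CPM in vehicle NAc, without overlap. A second RefSeq model held 22.5% ± 12.9 of the Vwf count in vehicle TG and 39.1% ± 12.8 in morphine TG (SD, n = 5), and under 1% in the NAc groups.

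The carriers Slc16a1 and Mfsd2a were higher in the TG as well, by 1.35 ± 0.05 and 1.24 ± 0.07 on the log2 scale, as was Slc7a5 by 0.75 ± 0.09. Mfsd2a, known as a gene of brain capillaries, read 40.9, 35.2, 42.9, 50.4 and 42.9 CPM in vehicle TG and 21.4, 19.6, 20, 19.6 and 20.1 CPM in vehicle NAc, with no overlap. Cd34, Itm2a and Emcn stood 1.22 ± 0.16, 0.97 ± 0.07 and 0.91 ± 0.10 higher in the TG. Cdh5 and Cd93 shared a log2 difference of 0.78, each 1.71-fold. Sox17 was 0.61 ± 0.09 higher in the TG while its relative Sox18 was -0.56 ± 0.14, and the receptor genes Kdr and Tie1 were 0.48 ± 0.09 and 0.47 ± 0.06 higher.

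On the NAc side, Apln was 10.6-fold higher than in the TG (log2 -3.41 ± 0.14). Unc5b was 4.81-fold higher in the NAc (log2 -2.27 ± 0.12) and Ocln 3.46-fold (log2 -1.79 ± 0.30). Ocln read 1.05, 1.88, 0.609, 1.51 and 1.32 CPM in vehicle TG and 4.27, 4.06, 5.23, 5.43 and 5.6 CPM in vehicle NAc, without overlap. Nos3 and Flt1 were -1.08 ± 0.11 and -0.72 ± 0.05, and Slco1a4 -0.54 ± 0.14 in vehicle mice and -0.97 ± 0.14 in morphine mice. Slc2a1 and Vegfa were each -0.30 on the log2 scale, with SE of 0.05 and 0.03. Marker sums of other cells also differed between the tissues. In vehicle mice fibroblast and meninges markers summed to 1660 ± 93.3 CPM in the TG and 280 ± 68.6 CPM in the NAc (SD). Astrocyte markers went the other way, at 212 ± 31.9 and 3620 ± 362 CPM. The part of other cells in the tissue differences of the members was not tested.

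Cldn5 was not called between tissues, at -0.18 ± 0.09 in vehicle mice with an adjusted p of 0.089. It was called under 10 of 30 alternatives. These were mouse as a block (-0.18, adjusted p of 0.00262), limma voom (-0.20), library-size scaling (-0.33), features of at least 1 CPM on average (-0.22), RefSeq-matched genes (-0.23), a threshold of 0.1, the fit without the 4 pituitary-rich libraries (-0.29) and 3 fits with a library left out, TG vehicle replicate 4 or 5 or NAc vehicle replicate 2. In morphine mice it was 0.01 ± 0.09, and the sign turned to -0.15 with library-size scaling, to -0.0408 with features of at least 1 CPM on average and to -0.0566 with RefSeq-matched genes alone. Tjp1, Erg, Pecam1, Icam2, Ly6c1, Plvap and Abcb1a were not called in vehicle mice either, with log2 differences between -0.17 and 1.00.

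**Figure D3:**
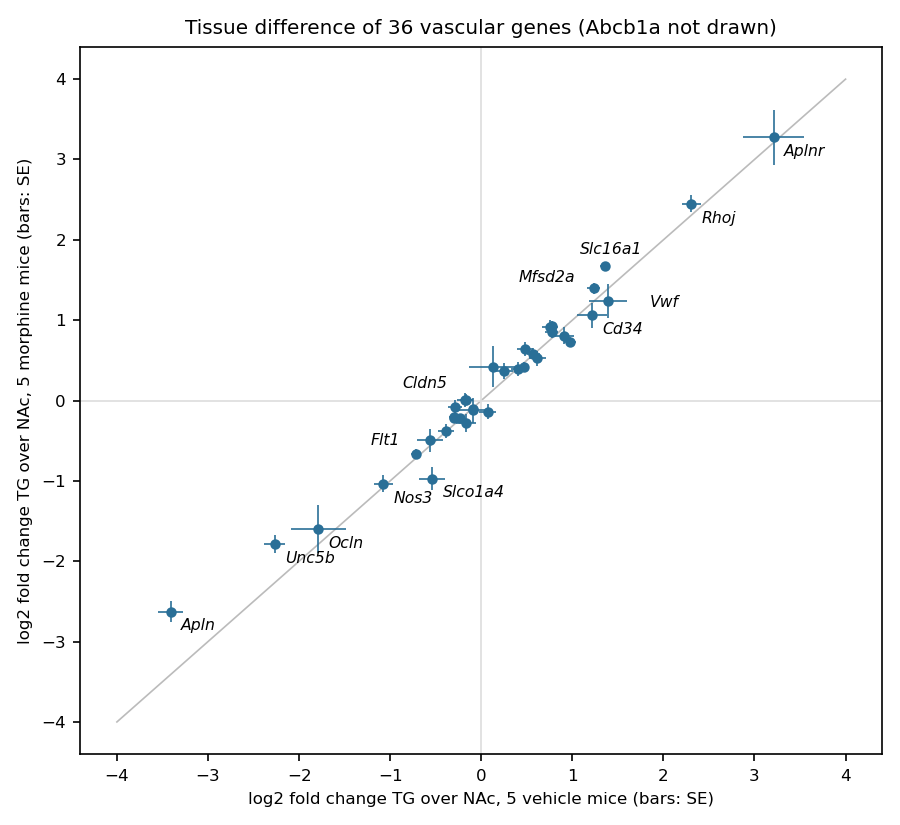
Log2 fold change of TG over NAc in 5 vehicle mice (x axis) against that in 5 morphine mice (y axis) for 36 members, with SE bars and a grey line of equal values. Aplnr and Rhoj lie at the upper right, and Apln, Unc5b and Ocln at the lower left.

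Other genes of the same systems were taken from 7 lists written from gene function, 160 genes in all, of which 155 were tested. In none of the morphine comparisons was any of them called. In the TG 22 of 155 had an unadjusted p under 0.05, beside 2955 of all 29394 features. In the NAc 16 of 153 did, beside 1709 of 29910 features. The lowest adjusted p in the TG were those of the receptor gene Bmpr2 (0.15 ± 0.03, adjusted p of 0.057) and the netrin gene Ntn4 (-0.41 ± 0.07, adjusted p of 0.069). Their log2 fold changes in the NAc were 0.07 ± 0.05 and -0.16 ± 0.12. The list of 18 further tight junction genes had a median of -0.01 in the TG and -0.13 in the NAc, where 15 of 17 tested were negative, and the further endothelial genes, 42 tested in the TG and 41 in the NAc, had medians of -0.03 and -0.07.

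Between the tissues, 75 of those 155 genes were called higher and 58 lower in the TG of vehicle mice, beside 32.9% of all features called higher and 34.5% called lower. Angpt2, which encodes the angiopoietin that counters Tie2 signalling, was 5.26 ± 0.12 higher on the log2 scale, and the caveolin gene Cav1 2.90 ± 0.06 higher. Cldn19, a claudin gene known from Schwann cells, was 7.76 ± 0.18 higher. The sphingosine phosphate receptor gene S1pr1 was -2.66 ± 0.07, the netrin receptor gene Dcc -4.24 ± 0.15 and the thyroid hormone carrier gene Slco1c1 -3.03 ± 0.13. In the guidance list 12 of 17 genes were lower in the TG, as the listed receptor Unc5b was, and in the VEGF, angiopoietin, apelin and BMP9 list 15 of 20 were higher, lists whose difference from the shares of all features was not tested.

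**Figure D4:**
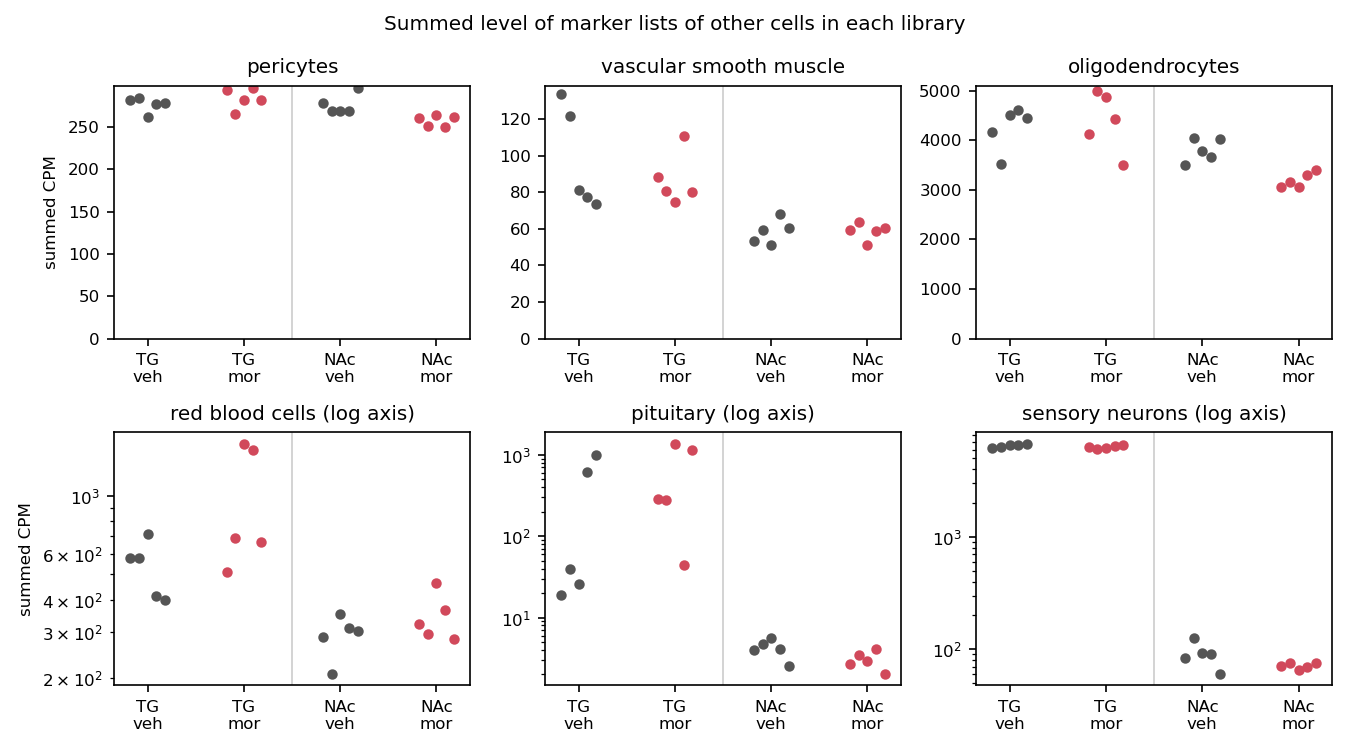
Summed CPM of 6 marker lists of other cells in each library, with vehicle in grey and morphine in red, the TG left and the NAc right of the line, and a log axis where the panel title says so. In the NAc the pericyte and oligodendrocyte sums are lower after morphine without overlap, and the pituitary sums differ widely among TG libraries. No single pericyte marker was lower without overlap in the NAc, and 3 of the 10 oligodendrocyte markers were, beside 1.07% of features.

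Summed markers of neighbouring cells were also compared between treatments. Pericytes share the capillary wall with the endothelium, and their 11 summed markers ran from 269 to 296 CPM in vehicle NAc and from 250 to 264 CPM in morphine NAc, without overlap. In the TG the same sum ran from 262 to 284 CPM and from 265 to 296 CPM. None of the 11 pericyte markers was called in either tissue, and 1 was called higher in the mean effect. In the NAc 8 of the 11 had negative and 3 had positive log2 fold changes, none with an unadjusted p under 0.05. No single pericyte marker was lower there without overlap, so the gap is one of the sum alone. The 8 smooth muscle markers summed to between 73.4 and 134 CPM with vehicle and 74.8 and 111 CPM with morphine in the TG. Red cell markers, a measure of blood left in the tissue, ran from 400 to 715 CPM and from 512 to 1580 CPM in the TG, and all 8 had positive log2 fold changes, none called. The sum of 45 genes at least 200 times higher in the TG stood at 0.214% to 0.46% of its TG level in vehicle NAc libraries and at 0.16% to 0.234% in morphine ones. These genes were picked from the same libraries by that ratio, which bounds the mean share in advance. The share therefore does not measure how much RNA of TG type the NAc libraries held. In CPM scaled over all 20 libraries, that change in share multiplied by the TG level came to -0.0382 CPM for Cldn5, beside a morphine minus vehicle difference of -6.35 CPM in the NAc, and to -0.0128 beside -8.16 CPM for Unc5b. For Tjp1 it came to -0.242 beside -0.467 CPM, and for Slc7a5 to -0.14 beside -0.0796 CPM. Because the choice of genes holds the share low, these products are low in advance and do not measure the part of RNA of TG type. The part of RNA of TG type, pericytes, oligodendrocytes, blood and pituitary in the values of the members was not tested beyond the fits without the pituitary-rich libraries.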

How the data were processed

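RNA was isolated with TRIzol and RNeasy and made into poly(A) libraries with a stranded TruSeq kit, read on an Illumina HiSeq, per the labels' protocols. The design text calls the reads paired-end and the protocol describes 1 end, so the read layout is uncertain, and lanes are not tied to libraries. The authors deposited expected counts per RefSeq transcript, made with kallisto 0.43 against GRCm38, per the submitters' processing notes; 56.7% of values were not whole. Transcripts were matched to genes by RefSeq identifier (80.8% of transcripts and 90% of counts), summed per gene and rounded, and 20577 unmatched transcripts were kept as single features, holding 9.06% to 9.15% of the count in TG libraries and 10.8% to 11.2% in NAc libraries.

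Treatment was tested within each tissue, and interaction, tissue difference and mean effect on all 20 libraries, by edgeR 4.0.16 in R 4.3.3 (filterByExpr, TMM, robust quasi-likelihood), 2-sided, with Benjamini-Hochberg adjustment over all features and a threshold of 0.05. SE is the absolute log2 fold change over the square root of F. Alternatives used DESeq2 1.42.0, limma 3.58.1, other scalings and filters, each library left out, and a replicate block. The steps were tested on simulated counts with known changes in features above 1 CPM on average. Of 1.5-fold changes, 55% were recovered in the TG, 29% in the NAc and 35% in the interaction. Of 2-fold changes, 74%, 56% and 60% were recovered in the same order. Unchanged features called numbered 6, 4 and 5. Changes of 1.5-fold were therefore often missed, above all in the NAc and the interaction. Tissues of 1 mouse carry the same label number, so the samples of the tissue comparisons are paired. The main fits held no term for the mouse and did not use this pairing, and mouse as a block was an alternative. Correlations of the deviations of tissues from the same mouse ran from -0.063 to 0.0343. Nothing says that treatment groups are paired, and whether the 5 mice of a group came from 1 cage or batch is not given in the sources used here.

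The members, the gene lists and the tests were chosen with earlier results of these data known. Values in every library are given for members called in a morphine comparison or the interaction, the 4 with the smallest p in each morphine comparison, and the 3 with the greatest tissue difference in each direction; Plat, Cdh5 and Mfsd2a were added after their values were seen. Of each function list, up to 3 called genes with the smallest p per comparison are eligible to be named. The morphine values of Bmpr2 and Ntn4, neither of them called, were given outside this rule for their low adjusted p.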

Additional observations from a re-analysis of the deposited data

Results flagged for a closer look

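In 7 of 144 groups of 5 libraries, 1 library lay far from the rest by Dixon's criterion, and chance gives about 1 in 20. Ocln read 0.436 CPM in TG morphine replicate 4, against 1.41 to 1.70 CPM in the other 4. Icam2 read 2.18 CPM in TG vehicle replicate 1, against 1.43 to 1.51 CPM. Abcb1a read 1.49 CPM in TG vehicle replicate 5, against 0.293 to 0.628 CPM. Apln read 18.6 CPM in NAc morphine replicate 1, against 16.7 to 17.1 CPM, still below every vehicle library. Mfsd2a read 21.4 CPM in NAc vehicle replicate 1, against 19.6 to 20.1 CPM. NAc morphine replicate 3 was the high library for Cd34, at 38.3 CPM against 18.1 to 20.8 CPM, and for Egfl7, at 19.0 CPM against 15.2 to 16 CPM.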

How the results depend on the processing

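Of 318 counts recomputed under alternatives, 251 stayed within 1.5 times the reported count. Of 1598 single-gene values, 1519 kept direction and side of the threshold. In the TG, features called went from 53 to 709 (DESeq2), 82 (limma voom), 85 (at least 1 CPM), 123 (RefSeq-matched genes), 148 (threshold of 0.1), 2 (replicate block), 0 (without the 4 pituitary-rich libraries) and 21 to 77 with a library left out; members went from 1 to 4, 2 (matched genes, 0.1), 0 (replicate block, pituitary) and 0 to 1. In the NAc, features went from 0 to 245, 4, 1, 3 and 2 in the same order up to the threshold of 0.1, and members to 7 by DESeq2. For the interaction, 13 features became 228 (DESeq2, 2 members), 0 (limma voom), 8 (library size, and no filter), 1 (mouse as a block) and 6 to 33 (a library left out). For the mean effect, 75 became 574, 153, 170 (0.1), 33 (pituitary, with 0 members) and 37 to 121; members numbered 4 to 6 with a library left out, and with mouse as a random block 5, without Plat. The Unc5b value in the TG turned negative in 3 of 10 fits with a library left out (-0.0188 to 0.139), and Cldn5 between tissues in morphine mice in 4 of 20 (-0.0158 to 0.0406), as well as at -0.15 (library size), -0.0408 (at least 1 CPM) and -0.0566 (matched genes). The cause was not tested. Between treatment groups the replicate numbers are shared only as numbers: correlations were -0.00906 to 0.0479 in the TG and 0.0333 to 0.33 in the NAc.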

Other observations

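The marker sums hold 1 further difference with no place in the comparisons above. Markers of striatal neurons spanned 1430 to 4510 CPM in vehicle NAc and 2730 to 3380 CPM in morphine NAc, and NAc vehicle replicate 5, the highest of them, also held the highest level of 14 of 35 members. In the TG, vehicle replicates 1 and 2 each held the highest level of 8 of 37 members, and morphine replicate 3 the lowest of 8.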
